A study of Mus musculus with 12 samples.

Results

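The DNA replication and nucleotide supply genes are 10 genes of mouse kidney RNA that are used when a cell copies its DNA: Mcm2, Mcm3, Mcm4, Mcm5, Mcm6, Mcm7, Pcna, Rrm1, Rrm2 and Tyms. They were taken by gene symbol from the deposited table of 19261 genes; all 10 were found in it, and all 10 had enough reads to be tested. The table holds 12 libraries in 4 groups of 3. The busulfan plus AOS group had been given busulfan once at 40 mg/kg and afterwards AOS (alginate oligosaccharides, short sugar chains cut from a seaweed polymer) at 10 mg/kg over 5 weeks. Mice of the busulfan group had been given the same single dose of busulfan, an alkylating drug that crosslinks DNA, and no AOS. The AOS group had been given the same course of AOS and no busulfan, and the control group neither agent. All groups are listed with the strain written as IRC; their age is not given in the labels, and the labels do not say that the libraries come from separate animals, so that p-values measure the spread between these libraries only. The tissue is written as "Cells" in the labels and as kidney in the title and protocol. In the 12 libraries 14 kidney tubule markers summed to between 46718 and 82832 CPM. The lowest sum was that of busulfan replicate 3, and the others had 62586 CPM or more. CPM are read counts relative to library size, scaled for library composition.

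Before a cell divides, a ring of 6 MCM proteins (the products of Mcm2 to Mcm7) is loaded on DNA at replication origins and unwinds it ahead of the polymerases. PCNA, the product of Pcna, is the sliding clamp that holds the polymerases on DNA and also serves DNA repair. Ribonucleotide reductase, built from a large subunit (Rrm1) and a small subunit (Rrm2), makes deoxynucleotides, and thymidylate synthase (Tyms) makes the precursor of thymine nucleotides. The cells of adult kidney tubules divide rarely, and a library of whole kidney averages them with vessels, stroma and blood cells; in such bulk samples, a change in the number of cells of a type cannot be told apart from a change in RNA per cell.

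After busulfan most of these genes had small fold changes above 0, and none passed the test. Busulfan against control gave log2 fold changes above 0 for 8 of the 10 members with a median of 0.32, against a median of -0.01 over all 14428 genes tested. Busulfan plus AOS against AOS also gave 8 of 10 above 0, with a median of 0.14 against 0.01 over all genes; without busulfan plus AOS replicate 2 this median was 0.06, and without AOS replicate 3 it was 0.07. These 2 comparisons share no library. Their mean, the average busulfan effect, had a median of 0.21 over the members and 0.00 over all genes, with 8 of 10 above 0. In none of these comparisons was a member called at an adjusted p under 0.05 (edgeR quasi-likelihood test): 0 of 10 against 0.0416% of all genes for busulfan against control, 0 of 10 against 0.0693% for busulfan plus AOS against AOS, and 0 of 10 against 0.194% for the average. DESeq2 also called 0 members in each of them. At an unadjusted p under 0.05 there was 1 member in busulfan against control (10.1% of all genes), 1 in busulfan plus AOS against AOS (9.16%) and 2 in the average (12.1%); DESeq2 had 1 in each. These shares of the members lie near those of all genes.

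**Figure D1:**
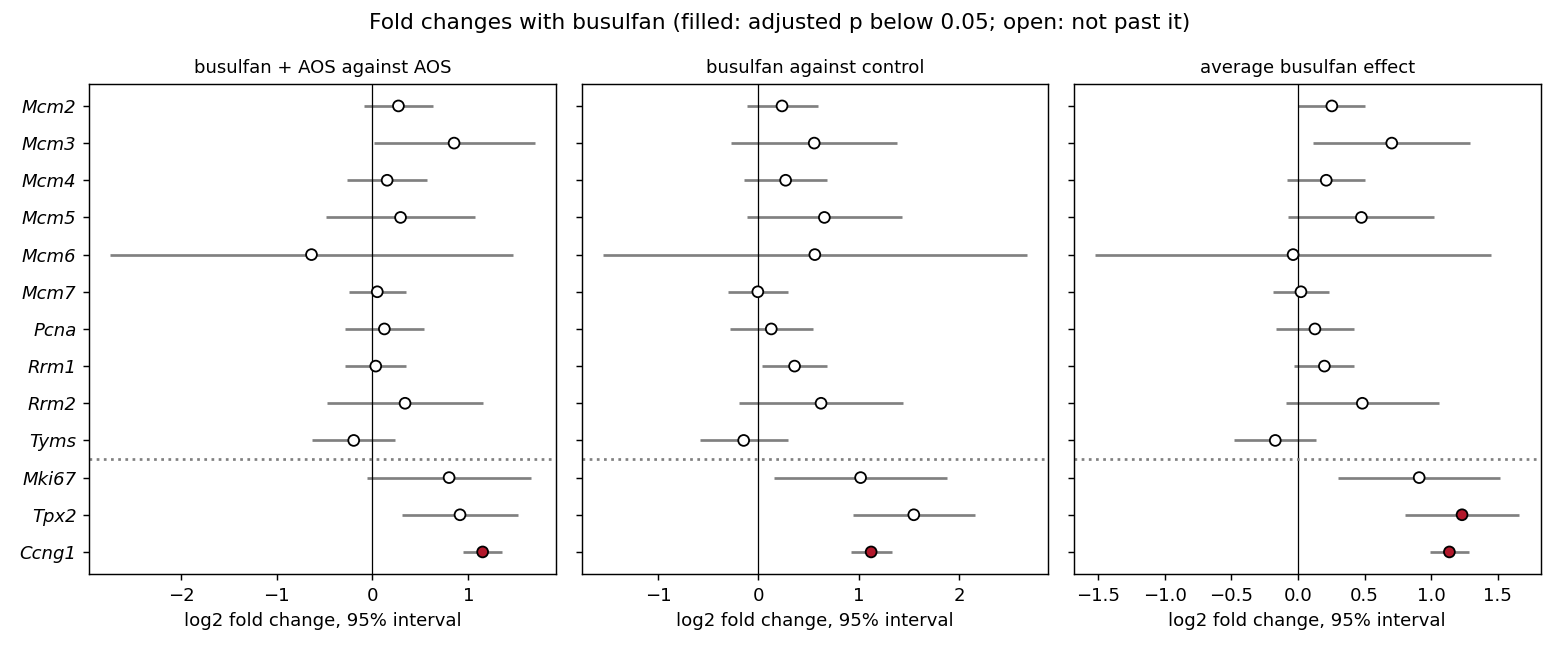
Log2 fold changes (horizontal axis, 95% intervals as bars) of the 10 members, above the dotted line, and of Mki67, Tpx2 and Ccng1 below it, in busulfan plus AOS against AOS, busulfan against control and the average of both; the panels have different horizontal scales. All 30 member points are open, that is, not past an adjusted p of 0.05, and the interval of Mcm6 is the widest of the 10 members in each panel.

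Among the helicase genes, Mcm3 had the lowest adjusted p of any member in the average busulfan effect. Its levels were 2.70, 3.68 and 5.01 CPM in busulfan plus AOS libraries, 2.14, 4.26 and 5.60 in busulfan, 1.97, 2.74 and 1.59 in AOS and 3.34, 2.67 and 2.18 in control. The 2 highest values were the third libraries of the busulfan groups, while the first library of each busulfan group lay within the range of the groups without busulfan. The average log2 fold change was 0.70 ± 0.27 (SE, 95% interval 0.11 to 1.29, adjusted p = 0.362), which rests on 23 to 94 reads per library. Without busulfan replicate 1 it was 0.85 with an adjusted p of 0.0983, the lowest that any member reached under any setting tried. Over 19 alternative settings this fold change ran from 0.36 to 0.85.

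Mcm2, another subunit of the ring, had 10.6, 13.4 and 13.6 CPM in busulfan plus AOS, 11.9, 15.03 and 16.0 in busulfan, 10.1, 11.5 and 9.47 in AOS and 10.8, 14.2 and 11.6 in control. Both busulfan groups overlapped the group without busulfan. The average log2 fold change was 0.25 ± 0.11 (SE, adjusted p = 0.409). Mcm5 measured 2.97, 5.45 and 3.63 CPM in busulfan plus AOS, 3.59, 7.62 and 4.23 in busulfan, 3.24, 3.76 and 2.83 in AOS and 3.71, 3.97 and 2.11 in control. Its highest value stood in busulfan replicate 2, and its average log2 fold change was 0.48 ± 0.25 (SE, adjusted p = 0.459). Mcm4 ranged over 6.71 to 9.59 CPM in busulfan plus AOS, 6.90 to 9.46 in busulfan, 7.12 to 8.28 in AOS and 5.74 to 7.56 in control, so that all groups overlapped; its average log2 fold change was 0.21 ± 0.13 (SE, adjusted p = 0.530). Mcm7 was the steadiest member, with 16.3 to 19.6 CPM in busulfan plus AOS, 14.2 to 20.6 in busulfan, 16.7 to 17.5 in AOS and 16.3 to 19.3 in control. For Mcm7 the average log2 fold change was 0.02, and its 95% interval of -0.19 to 0.23 bounds the difference more tightly than for any other member.

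Mcm6 did not vary like the other members. Its levels were 3.04, 18.0 and 16.4 CPM in busulfan plus AOS, 2.55, 18.0 and 23.7 in busulfan, 17.4, 14.6 and 26.2 in AOS and 3.12, 2.60 and 24.4 in control. The libraries thus fell apart into 4 with 2.55 to 3.12 CPM (36 to 44 reads) and 8 with 14.6 to 26.2 CPM (214 to 398 reads), with nothing between. The low libraries were busulfan plus AOS replicate 1, busulfan replicate 1 and control replicates 1 and 2, so that they did not follow the treatment; no AOS library was low. The step between the highest low and the lowest high library was 4.69-fold, and among 11035 genes of at least 5 CPM on average 32 (0.29%, Mcm6 included) had a step as wide with at least 3 libraries on each side. The highest over the lowest library was 10.3-fold for Mcm6, against 1.45-fold for Mcm7 to 4.65-fold for Rrm2 among the other 9 members. On the log2 scale the SD within groups was 1.36 for Mcm6 and 0.16 to 0.45 for the others. The treatment comparisons of Mcm6 are correspondingly loose: the average busulfan log2 fold change was -0.04 with a 95% interval of -1.52 to 1.45, and busulfan against control gave 0.56 with an interval of -1.55 to 2.68. Without control replicate 3, busulfan against control gave 2.38, with no call.

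The gene that lies next to Mcm6 was lowest in the same 4 libraries. Mcm6 spans chromosome 1, positions 128331575 to 128359705 (GRCm38.p6), and Dars, which encodes the cytosolic aspartyl-tRNA synthetase, spans 128363707 to 128417416, 4001 bases beyond the start of Mcm6. Both are read from the minus strand. Dars had 71.4, 86.9 and 93.8 CPM in busulfan plus AOS, 74.3, 84.5 and 87.1 in busulfan, 91.6, 88.4 and 100.6 in AOS and 73.9, 76.2 and 106.0 in control. The 4 libraries with low Mcm6 were the 4 lowest for Dars as well, by a far smaller margin. They had 71.4 to 76.2 CPM of Dars, against 84.5 to 106.0 in the others. Of all genes tested, Dars had the standardized profile over the 12 libraries that was nearest to that of Mcm6, with a root mean square difference of 0.44 SD; next came Smarcal1, a fork-remodelling translocase, with 0.53, Dnase2a with 0.53 and Cep128 with 0.54. Other genes nearby followed these 4 libraries in part or not at all. On the side of Mcm6 away from Dars, 0 of the 4 low libraries lay below all others for Ubxn4 and for R3hdm1, and 3 for Zranb3. Lct, also on that side, was at 0 to 1.19 CPM. For Cxcr4, beyond Dars, 1 of the 4 low libraries lay below all others. The annotated spans of Mcm6 and Dars do not overlap. Whether counting used strand is not stated, and strand would not tell reads of this pair apart. What separates the libraries was not tested.

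**Figure D2:**
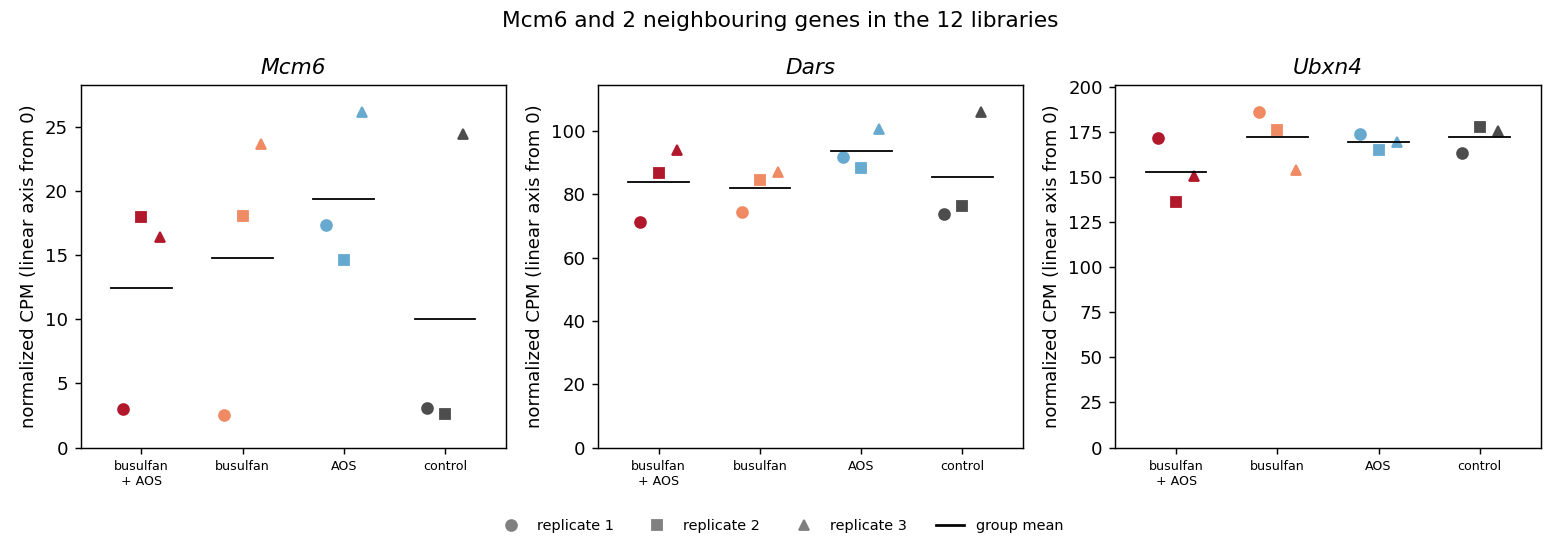
Normalized CPM (vertical axes, linear from 0) of Mcm6, its neighbour Dars and the more distant Ubxn4 in each library, by group; symbols give the replicate and bars the group mean. For Mcm6, 4 libraries lie at 3.12 CPM or below and 8 at 14.6 or above; the same 4 are lowest for Dars and not for Ubxn4.

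The promoter letters of the helicase genes are shown because E2F transcription factors, which drive genes of the S phase, are known to act on such promoters. RefSeq promoter windows of 300 bases (250 before and 50 after the start, GRCm38.p6) were at hand for 9 of the 10 members. The words TTTGGCGC, TTTCGCGC, TTTCCCGC and TTTGCCGC, searched on both strands, were found for 4 of these 9 (Mcm3, Mcm5, Mcm6 and the first of 2 windows of Mcm7), against 2.26% of 32851 promoters. CCAAT, also on both strands, was found for 8 of 9, against 37.4%. The counts over members are per gene, with 2 windows for Mcm7, whereas the shares of all promoters are per window. The Mcm6 promoter (chr1:128359656-128359955, minus strand) and 40-base stretches from those of Mcm5 (chr8:75109342-75109381, plus strand) and Mcm7 (chr5:138172025-138172064, minus strand) read 5′ to 3′ as follows, with the E2F words in capitals; adjoining capitals are 2 words that overlap on opposite strands.
Mcm6: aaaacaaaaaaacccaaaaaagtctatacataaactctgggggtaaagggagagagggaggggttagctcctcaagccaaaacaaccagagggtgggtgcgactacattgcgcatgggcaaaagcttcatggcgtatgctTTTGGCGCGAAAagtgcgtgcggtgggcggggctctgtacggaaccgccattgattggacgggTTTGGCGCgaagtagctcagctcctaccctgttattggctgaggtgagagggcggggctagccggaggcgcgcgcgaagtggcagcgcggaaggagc
Mcm5: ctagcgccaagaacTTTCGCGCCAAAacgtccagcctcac
Mcm7: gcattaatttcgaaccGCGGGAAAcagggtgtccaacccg
Mcm6 held 3 such words, Mcm3, Mcm5 and Mcm7 held 2 each, and Mcm2, Pcna, Rrm1, Rrm2 and Tyms held none in this window. The Dars promoter held none either. A match describes the letters only.

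Of the ribonucleotide reductase genes, Rrm1, on chromosome 7, had the lowest adjusted p of the members in busulfan against control. It had 17.05, 21.3 and 19.0 CPM in busulfan and 12.1, 16.1 and 16.6 in control. Rrm1 was the only member whose busulfan libraries all lay above all control libraries, which 5.59% of all genes also did. No member did so in busulfan plus AOS against AOS, against 8.4% of all genes. The log2 fold change was 0.36 ± 0.15 (SE, 95% interval 0.04 to 0.68, adjusted p = 0.463). In busulfan plus AOS, Rrm1 had 17.9, 16.7 and 14.8 CPM, against 15.6, 14.6 and 18.0 in AOS. There the groups overlapped and the log2 fold change was 0.03 (95% interval -0.29 to 0.36); the difference between the 2 busulfan effects was -0.33 ± 0.21 (SE, adjusted p = 0.801).

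Rrm2, the small subunit that dividing cells make in S phase, had 5.81, 4.88 and 5.96 CPM in busulfan plus AOS, 5.31, 11.3 and 5.24 in busulfan, 4.43, 6.30 and 2.42 in AOS and 5.60, 4.40 and 4.15 in control. A single library, busulfan replicate 2, stood far above the rest. Busulfan against control gave a log2 fold change of 0.63 ± 0.37 (SE, adjusted p = 0.583), and 0.17 without that library. Rrm2b, the alternative small subunit that p53 induces and that serves cells outside S phase, is no member; its level per length was 7.74 to 12.3 FPKM, above the 1.21 to 5.47 FPKM of Rrm2 in each library. FPKM are reads relative to both transcript length and library size. Its average log2 fold change was -0.21 ± 0.11 (SE, adjusted p = 0.447).

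Pcna and Tyms carry decimals in their estimated counts in 11 and 12 of the 12 libraries, where the other 8 members had whole counts in all 12; such decimals can come from reads that match several transcripts, which was not tested, and the levels of both are taken as uncertain. Among the genes named beside the members, Rrm2b, Ccnd1 and Cdkn1a had whole counts in 0 of the 12 libraries and Gins2 in 3. Their levels are taken as uncertain as well. Pcna had 30.2, 27.4 and 24.4 CPM in busulfan plus AOS, 23.3, 34.9 and 30.3 in busulfan, 27.9, 25.8 and 21.6 in AOS and 34.2, 24.2 and 22.7 in control. The highest busulfan and control libraries were alike, and the average log2 fold change was 0.13 ± 0.13 (SE, adjusted p = 0.705). Tyms had 24.9, 15.2 and 17.6 CPM in busulfan plus AOS, 17.9, 21.3 and 13.7 in busulfan, 22.7, 20.6 and 23.0 in AOS and 18.1, 18.1 and 22.4 in control. It had the lowest average busulfan log2 fold change of the members, -0.17 ± 0.14 (SE, adjusted p = 0.624), with overlap in both comparisons.

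**Figure D3:**
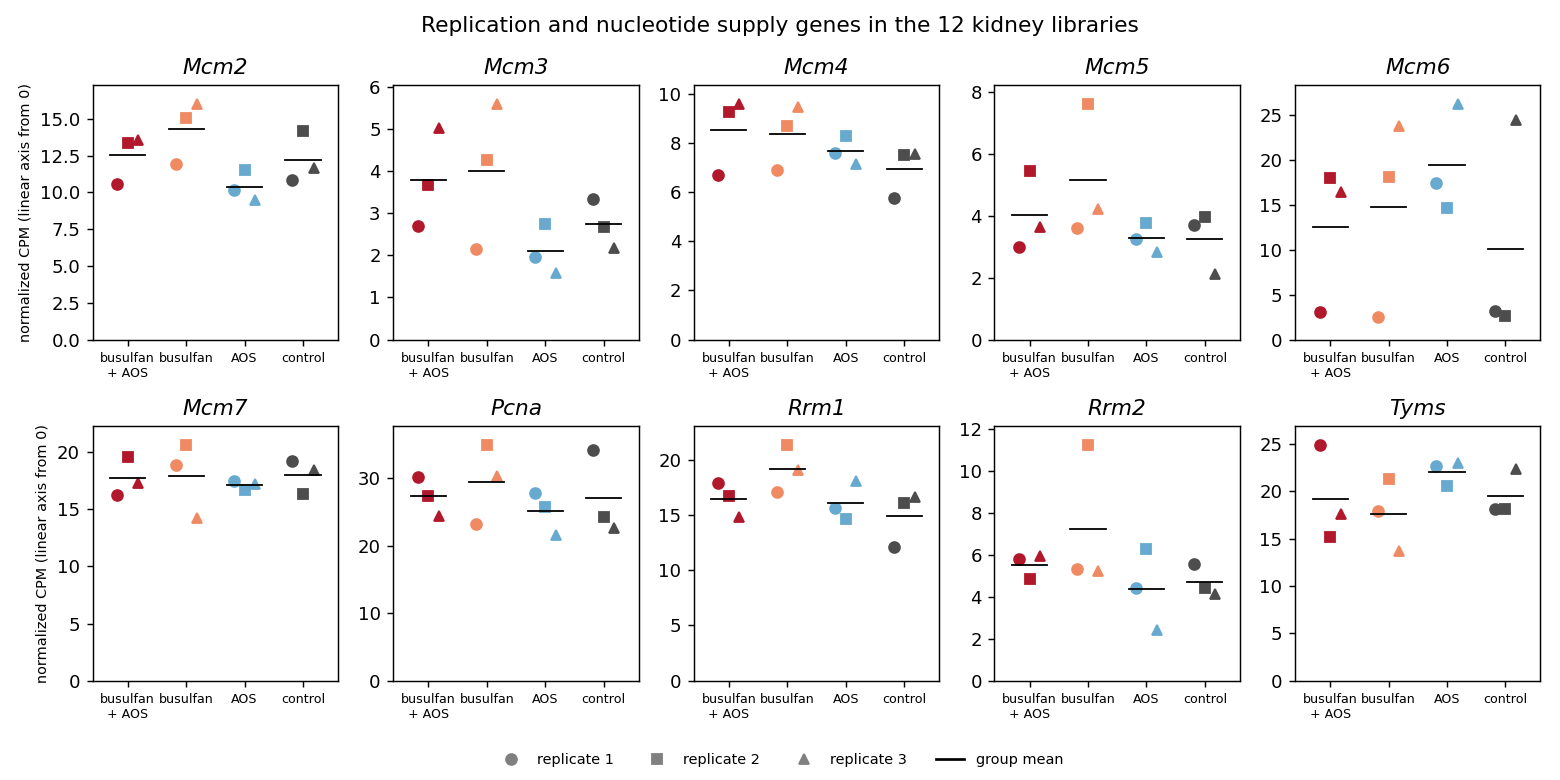
Normalized CPM (vertical axes, linear from 0, own scale per gene) of the 10 members in each library, by group; symbols give the replicate and bars the group mean. The groups overlap in nearly every panel, Mcm6 falls into 2 levels within 3 of the 4 groups, and busulfan replicate 2 stands out for Rrm2 and Mcm5.

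Per length, Pcna was the most abundant member, with a median of 23.6 FPKM over the 12 libraries, above every other member in all 12. Mcm7 followed with 7.72, Mcm6 with 5.67, Tyms with 5.22, Rrm1 with 4.24, Mcm2 with 3.62, Rrm2 with 2.62, Mcm4 with 2.17, Mcm5 with 1.34 and Mcm3 with 1.00. Not all neighbours in this order were separate: Mcm6 exceeded Tyms in 6 of 12 libraries, and Rrm2 exceeded Mcm4 in 6 of 12. Mcm2 exceeded Rrm2 in 11 and Mcm4 exceeded Mcm5 in 11. Although the 6 MCM proteins work as 1 ring, the transcripts thus differed several-fold in level. Among these 6, Mcm6 ranked first in 3 libraries and last in 2. The ratio of Rrm1 to Rrm2 in FPKM lay between 1.00, in busulfan replicate 2, and 3.93, in AOS replicate 3.

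**Figure D4:**
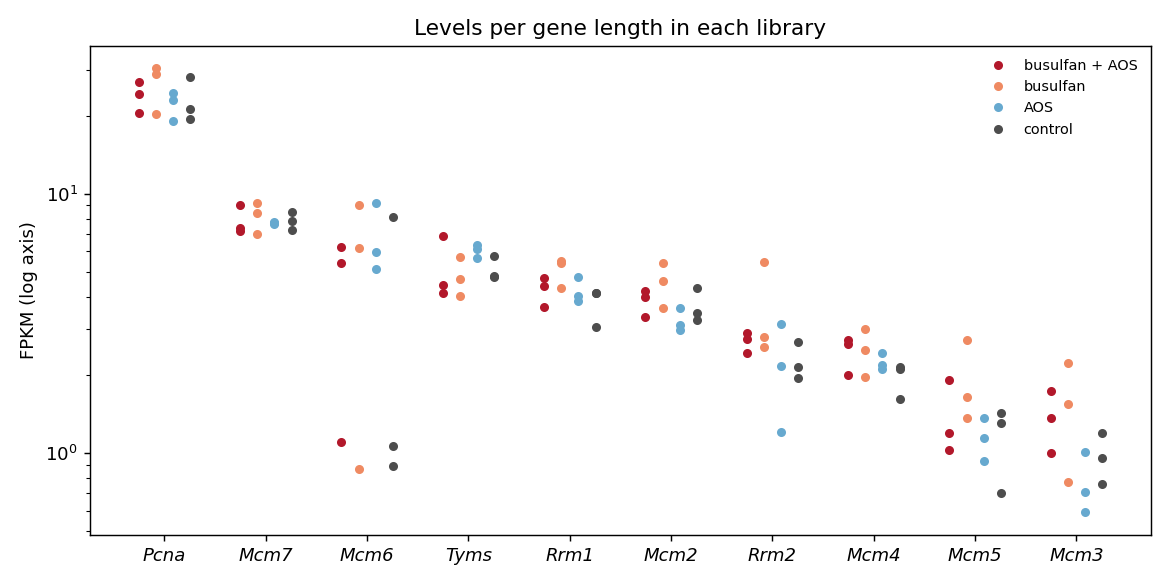
FPKM (vertical axis, log scale) of each member in each library, ordered by median and coloured by group. Pcna lies above all other members in each library, and Mcm6 is the single member with 2 separate levels.

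With AOS alone the members had fold changes on both sides of 0. AOS against control gave log2 fold changes above 0 for 5 members and below 0 for 5, with a median of -0.03 (0.00 over all genes), and 0 of 10 called, against 0.0% of all genes. The largest was that of Mcm6, 0.95 ± 0.96 (SE, 95% interval -1.17 to 3.07), with 2 of the 3 control libraries at the low level and no AOS library there. Without Mcm6, the log2 fold changes lay between -0.38 for Mcm3 and 0.17 for Tyms. Busulfan plus AOS against busulfan gave 2 members above 0 and 8 below, with a median of -0.16 against -0.01 over all genes, and 0 of 10 called, against 0.0% of all genes. Rrm2 had the lowest value, -0.39 ± 0.37 (SE, adjusted p = 0.771). This median rested on 1 library: without busulfan replicate 2 it was 0.02. Whether the busulfan effect differed with AOS was tested as an interaction, with a median of -0.09 over the members and 0 of 10 called, against 0.0% of all genes. At an unadjusted p under 0.05, each of these 3 comparisons had 0 members by edgeR and 0 by DESeq2, against 3.59%, 8.69% and 5.89% of all genes by edgeR.

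The remaining genes of replication and nucleotide supply gave the same absence of calls. In 10 lists, 129 genes were measured and 122 tested, and 0 passed in any of the 6 comparisons. In the average busulfan effect 73 were above 0 and 49 below, with a median of 0.04, and 18 of the 122 had an unadjusted p under 0.05, near the 12.1% of all genes. Origin licensing genes, which load the ring, had 2 of 8 above 0 and a median of -0.08. Cdc6, which loads MCM proteins on DNA, gave 0.77 ± 0.35 (SE, adjusted p = 0.412), on only 3 to 14 reads per library. Its partner Cdt1 gave 0.26 ± 0.32 (SE, adjusted p = 0.750). Of the genes that activate the ring, 9 of 11 were above 0. Gins2, a subunit of the GINS complex of the active helicase, came nearest to a call. It had 1.60, 1.59 and 0.87 CPM in busulfan plus AOS, 1.50, 1.81 and 1.57 in busulfan, 0.70, 0.66 and 0.41 in AOS and 0.51, 0.89 and 0.80 in control. Every busulfan library thus exceeded every library of its own comparison group, at an average log2 fold change of 1.15 ± 0.25 (SE, adjusted p = 0.139). Of all genes, 5.59% did so in busulfan against control and 8.4% in busulfan plus AOS against AOS. The values of Gins2 rest on 6 to 26 reads per library. Mcm10, which also takes part in activation, gave 0.62 ± 0.26 (SE, adjusted p = 0.394), with 13.8 CPM in busulfan plus AOS replicate 3 and at most 6.79 in any other library. That replicate also had the highest sum of hepatocyte markers.

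Polymerase and primase genes had 8 of 12 above 0 with a median of 0.09. Genes of the clamp loader and lagging strand had 11 of 17 above 0, among them Lig1, which joins the fragments of that strand, with 0.44 ± 0.15 (SE, adjusted p = 0.324), and Chtf18, of an alternative clamp loader, with 1.21 ± 0.35 (SE, adjusted p = 0.286) at no more than 1.26 CPM. Nucleotide supply was still closer to 0. Pyrimidine and deoxynucleotide genes had 9 of 20 above 0 (median -0.02), the folate cycle 5 of 10 (median 0.01) and purine synthesis 7 of 13 (median 0.01). Tk1, the thymidine kinase of S phase, gave 0.21 ± 0.20 (SE, adjusted p = 0.673). E2F and G1/S regulators had 12 of 18 above 0, with E2f1 at 0.46 ± 0.22 (SE, adjusted p = 0.433). The cyclin gene Ccnd1 gave 0.99 ± 0.22 (SE, adjusted p = 0.303) in busulfan plus AOS against AOS and 0.10 ± 0.22 (SE, adjusted p = 0.909) in busulfan against control; the difference between them was 0.89 ± 0.31 (SE, adjusted p = 0.793). It had 340.8, 616.6 and 362.0 CPM in busulfan plus AOS and 199.4 to 319.5 in the other libraries. Among genes of replication-coupled chromatin 6 of 8 were above 0 (median 0.23), led by Hells, a chromatin remodeller, with 0.73 ± 0.20 (SE, adjusted p = 0.274).

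The mitosis genes had larger fold changes than most members. All 21 mitosis markers were above 0 in the average busulfan effect, with a median log2 fold change of 1.05 beside 0.21 for the members. Of the 21, 1 was called, against 0.194% of all genes. At an unadjusted p under 0.05 (edgeR) there were 18, against 12.1% of all genes. This list, too, was chosen with earlier results of these data known. Tpx2, a spindle assembly factor, rose, with 2.28, 2.33 and 2.32 CPM in busulfan plus AOS, 2.69, 4.82 and 2.50 in busulfan, 1.20, 1.23 and 1.24 in AOS and 1.16, 1.23 and 1.02 in control (1.23 ± 0.20, SE, adjusted p = 0.0349). Mki67, the proliferation marker, gave 0.91 ± 0.27 (SE, adjusted p = 0.303) and Top2a, the topoisomerase of chromosome condensation, 1.05 ± 0.27 (SE, adjusted p = 0.249). Of 13 tested genes of the p53 response and CDK inhibition 5 were called, against the same 0.194% of all genes. The 5 were Cdkn1a, Ccng1, Phlda3, Eda2r and Zmat3, all of which rose. Cdkn1a, the p53-induced inhibitor that holds cells before S phase, rose by 2.32 ± 0.23 (SE, adjusted p = 0.0023) on the log2 scale. That the mitosis genes and the members differ in size was not tested.

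The summed level of the 9 members other than Mcm6 was 118.0, 115.4 and 111.9 CPM in busulfan plus AOS, 106.9, 145.0 and 117.8 in busulfan, 111.0, 110.3 and 103.2 in AOS and 112.9, 107.5 and 107.7 in control. Only busulfan replicate 2 stood clear of the rest. It was the highest of all 12 libraries for Mcm5, Mcm7, Pcna, Rrm1 and Rrm2, and busulfan replicate 3 was the highest for Mcm2 and Mcm3. Summed mitosis markers were 53.5, 68.2 and 55.8 CPM in busulfan plus AOS, 46.2, 119.7 and 52.4 in busulfan, 34.0, 39.0 and 22.6 in AOS and 34.3, 39.0 and 25.5 in control, again highest in busulfan replicate 2.

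**Figure D5:**
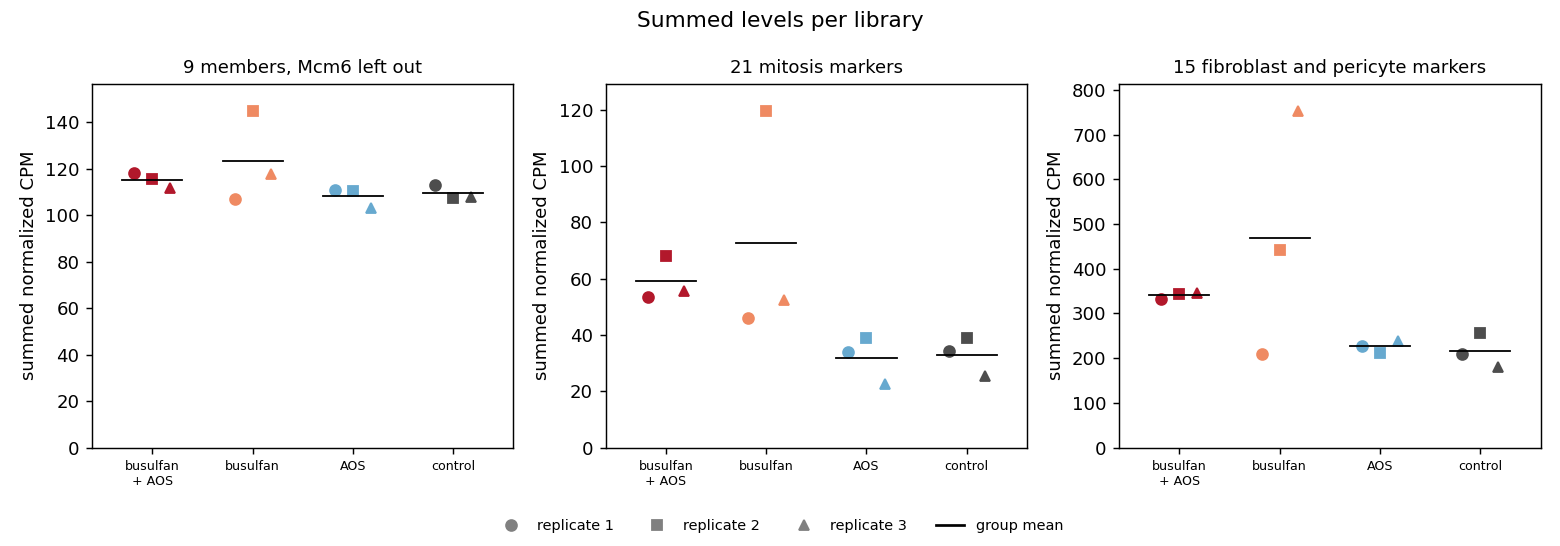
Summed normalized CPM (vertical axes, linear from 0) of the 9 members other than Mcm6, of 21 mitosis markers and of 15 fibroblast and pericyte markers in each library, by group; symbols give the replicate and bars the group mean. Busulfan replicate 2 has the highest sum in the first 2 panels, with 145.0 and 119.7 CPM, and busulfan replicate 3 in the third, with 753.6 CPM.

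Markers of other cells also differed between these libraries. The 7 urothelial markers summed to 5.05, 1.98 and 2.03 CPM in busulfan plus AOS, 12.8, 25.4 and 9.58 in busulfan, 4.63 to 5.56 in AOS and 2.40 to 2.62 in control, highest in busulfan replicate 2; none was at 0 in the 3 busulfan libraries. The 16 markers of tubular injury summed to 1103 to 1208 CPM in busulfan plus AOS, 1045, 1303 and 1089 in busulfan, 909.8 to 1006 in AOS and 802.3 to 952.8 in control, again highest in busulfan replicate 2, and all 14 tested were above 0 in the average busulfan effect, with 0 called. The 10 erythroid markers summed to 860.5 to 1171 CPM in busulfan plus AOS, 537.5, 614.6 and 975.8 in busulfan, 1147 to 1530 in AOS and 1194 to 1918 in control. The 15 fibroblast and pericyte markers, none of them at 0 in any library, summed to 332.5 to 345.9 CPM in busulfan plus AOS, 209.9, 440.9 and 753.6 in busulfan, 211.8 to 238.8 in AOS and 180.2 to 256.0 in control, and all 15 were above 0 in the average busulfan effect. The 13 adipose markers summed to 124.9 to 427.3 CPM in busulfan plus AOS, 129.6, 994.2 and 1623 in busulfan, 115.9 to 259.5 in AOS and 137.8 to 187.5 in control; none was at 0 in busulfan replicates 2 and 3. For the 14 adrenal markers the sum reached 10863 CPM in the third busulfan library, with none at 0, and at most 71.3 in the others, where 2 to 8 of the 14 were at 0. That busulfan library also had the lowest sum of the 14 kidney tubule markers, 46718 CPM. For the 15 hepatocyte markers the sum reached 25740 CPM in busulfan plus AOS replicate 3 and at most 3178 elsewhere. Without the adrenal and hepatocyte libraries the median log2 fold change of the members in busulfan against control was 0.16 in place of 0.32, still with 0 of 10 called. The hepatocyte library is in neither group of that comparison, and leaving out busulfan replicate 3 alone also gave 0.16. The part of these cells in the levels of the members was not tested.

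The members did not vary as 1 block. Measured against the mean of the other 9 standardized profiles over the 12 libraries, Mcm5 was nearest, with a root mean square difference of 0.68 SD, then Rrm2 with 0.75, while Mcm7 with 1.29 and Tyms with 1.60 were farthest. Among all other genes tested, the profile nearest to the mean of the members was that of Mki67, with 0.36, followed by Mad2l1, a spindle checkpoint gene, with 0.38, Grem1, a secreted antagonist of bone morphogenetic proteins, with 0.41, Bub1b, also of the spindle checkpoint, with 0.44, Prc1, a midzone protein of cytokinesis, with 0.46, Ncaph, a condensin subunit, with 0.46, Hells with 0.47 and Plk1, a mitotic kinase, with 0.47. Mki67 had 8.23, 10.3 and 10.1 CPM in busulfan plus AOS, 6.56, 20.7 and 7.86 in busulfan, 5.28, 6.98 and 4.15 in AOS and 5.01, 6.93 and 5.38 in control. All 8 of these genes were highest in busulfan replicate 2, as were 5 of the 10 members, so that the likeness leans on that library.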

How the data were processed

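RNA of mouse kidney was sequenced in 12 libraries, grouped by their titles. The genome build is mm10, per the submitters' processing notes; for the aligner and counter, nothing is given in the sources used here. Estimated counts per gene were deposited by the authors without scaling, with library totals of 13875942 to 15329347 reads. Deposited beside them is an expression column that, judged by its scale, holds FPKM. A count of 0 allows up to 0.196 to 0.216 CPM (3 counts); this limit covers counting error only. Intervals of fold changes come from the model. Positions and promoters come from RefSeq GRCm38.p6, matched by gene ID.

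Counts were rounded and tested with edgeR 4.0.16 (R 4.3.3): trimmed-mean scaling, edgeR's expression filter (14428 genes kept), 1 mean per group over all 12 libraries and quasi-likelihood tests, two-sided, adjusted by Benjamini-Hochberg over all genes tested in a comparison, threshold 0.05. The biological coefficient of variation was 26.8%. The script was tested on simulated data. The average busulfan effect is the mean of busulfan against control and busulfan plus AOS against AOS. Profiles are log2(CPM + 0.5), standardized over the 12 libraries.

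Members and gene lists were chosen with earlier results of these data known, so no list was tested. Named are all members, fixed partner genes, and from each list the called genes or else the 2 of lowest p in the average busulfan effect, of which the text gives part; the genes nearest in profile are the first 8. The neighbours of Mcm6 and the setting without Mcm6 were chosen after its values were seen. Alternatives were DESeq2 1.42.0, limma 3.58.1 on log2(FPKM + 1), relative log expression scaling, no filter, a filter of 1 CPM in 3 libraries, a fit of the compared groups alone, the replicate block, and libraries left out.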

Additional observations from a re-analysis of the deposited data

How the results depend on the processing

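No member passed the adjusted threshold in any of the 6 comparisons under any of up to 20 alternative settings. Of 1180 recomputed member fold changes, 70 changed sign, none of them past the threshold, and 7 moved by more than 1 SD between replicates. The median log2 fold change of the members in busulfan against control was 0.155 without the adrenal and hepatocyte libraries, and 0.155 (without busulfan replicate 3) to 0.413 when 1 library was left out. In busulfan plus AOS against AOS it ran from 0.059 (without busulfan plus AOS replicate 2) to 0.199, with 0.074 without AOS replicate 3, and in AOS against control from -0.121 to 0.065. In busulfan plus AOS against busulfan it ran from -0.305 (without busulfan replicate 1) to 0.02 (without busulfan replicate 2), and in the interaction from -0.193 to 0.08 (without busulfan replicate 2). In the average busulfan effect it stayed between 0.178 and 0.253 when 1 library was left out.

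Counts over all genes moved more. DESeq2 called 127 genes in busulfan against control (edgeR 6), 82 in busulfan plus AOS against AOS (10) and 215 in the average (28). It called 8 for AOS against control, 26 for busulfan plus AOS against busulfan and 11 for the interaction, where edgeR called 0. When the fit held the compared groups alone, 0 and 1 genes were called for the first 2 comparisons. Without the adrenal and hepatocyte libraries 6 were called in busulfan plus AOS against AOS and 1 in busulfan plus AOS against busulfan. With 1 library left out, calls ran from 2 to 195 in busulfan against control, 1 to 25 in busulfan plus AOS against AOS, 0 to 26 in busulfan plus AOS against busulfan, 18 to 163 in the average and 0 to 1 in the interaction; the 195 and 163 came without busulfan replicate 1, and the 25 and 26 without busulfan plus AOS replicate 1.

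With the replicate block, 0 members and 4 genes were called in busulfan plus AOS against AOS. The correlations between libraries gave no clear sign that the replicate numbers pair them, but cannot exclude it. Over 18 same-number pairs the deviations correlated at r = -0.261 to 0.159, above 0.1 in 4, and 6 of 12 libraries correlated best with their own number. The cause of these shifts was not tested.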
